A study of Mus musculus with 6 samples.

Results

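The protein kinase C (PKC) isoforms are a family of serine/threonine kinases that act downstream of receptors coupled to the G protein Gq. These receptors activate phospholipase C, which splits a membrane lipid into diacylglycerol and a messenger that releases calcium. Classical isoforms (such as PKCα and PKCβ) need calcium and diacylglycerol, nPKC isoforms (PKCδ, PKCε, PKCη, and PKCθ) need diacylglycerol but not calcium, and atypical isoforms (PKCι and PKCζ) need neither and are held on scaffold proteins. In the hippocampus the family is known for phosphorylating glutamate receptors and presynaptic proteins and for its part in synaptic plasticity. Here the 8 isoform genes *Prkca*, *Prkcb*, *Prkcd*, *Prkce*, *Prkch*, *Prkci*, *Prkcq*, and *Prkcz* were taken by symbol from the 14477 genes of the expression table, and all 8 were present.

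Hippocampal RNA came from 3 Phf21bΔ4/Δ4 mice, replicates 2, 3, and 6, and from 3 Phf21b+/+ mice, replicates 5, 7, and 8, with 1 sequenced library for each mouse and no treatment. Both genotypes were on the C57BL/6J background, and the study used young adult littermates of both sexes, aged from 2 to 6 months. Phf21bΔ4/Δ4 mice carry in all tissues an out-of-frame deletion in exon 4 of *Phf21b*, a gene for a plant homeodomain protein that reads histone marks, and they still make some of its transcript and protein, so they are a knockdown model. The labels do not give the sex or the age of single mice or a library batch. The comparison asked which genes differ in level between the hippocampal RNA of the 2 genotypes.

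The reads counted on listed genes numbered from 20495605 to 24881257 for a mouse, and levels are given in CPM, the read count scaled to effective library size. The genotypes were compared by limma's moderated test on log2 CPM, with the FDR taken over all 14477 genes, and a call required an FDR below 0.1 together with a change of more than 1.3-fold. By these criteria 176 genes (1.22% of those tested) were called, 80 of them higher (0.553%) and 96 lower (0.663%) in Phf21bΔ4/Δ4 mice. *Phf21b* had 2.15, 3.57, and 3.87 CPM in Phf21bΔ4/Δ4 replicates 2, 3, and 6 and 6.50, 5.23, and 6.47 CPM in Phf21b+/+ replicates 5, 7, and 8, a log2 fold change of -0.96 (FDR 0.14, limma). Markers of brain parts next to the hippocampus were present, and habenula and thalamus markers differed between the genotypes. Of 14 medial habenula markers 12 were called lower in Phf21bΔ4/Δ4 mice, and *Pou4f1*, *Chat*, *Slc18a3*, and *Irx2* had at most 3 reads in each Phf21bΔ4/Δ4 mouse. Of 14 thalamus markers 3 were called lower. Choroid plexus markers differed between single mice, and the genotypes overlapped. The summed level of 10 of them was 16027 CPM in Phf21b+/+ replicate 7, 1013 CPM in replicate 8, and between 28.8 and 90.7 CPM in the other 4 mice. *Ttr* made up 89.8% of this sum. Without Phf21bΔ4/Δ4 replicate 6 the number of called genes was 2830.

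Of the 8 isoform genes, 3 were called where the share over all genes was 1.22%. *Prkcb* rose in Phf21bΔ4/Δ4 mice, by 1.69-fold, while *Prkch* and *Prkcq* fell, by 2.29-fold and 2.94-fold. The other 5 were not past the thresholds. The 2 genotypes did not overlap in 5 of the 8 genes (*Prkcb*, *Prkce*, *Prkci*, *Prkch*, and *Prkcq*), against 31.0% of all genes. The median log2 fold change was 0.16 over the 8 isoforms and -0.02 over all genes. All 8 passed a filter of a mean log2 CPM of 1, and the lowest count of any of them in any mouse was 80 reads. An unadjusted p under 0.05 was found for 4 of the 8 genes and for 23.6% of all genes (limma). None of the 8 genes lies on chromosome 15, which holds *Phf21b*.

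**Figure D1:**
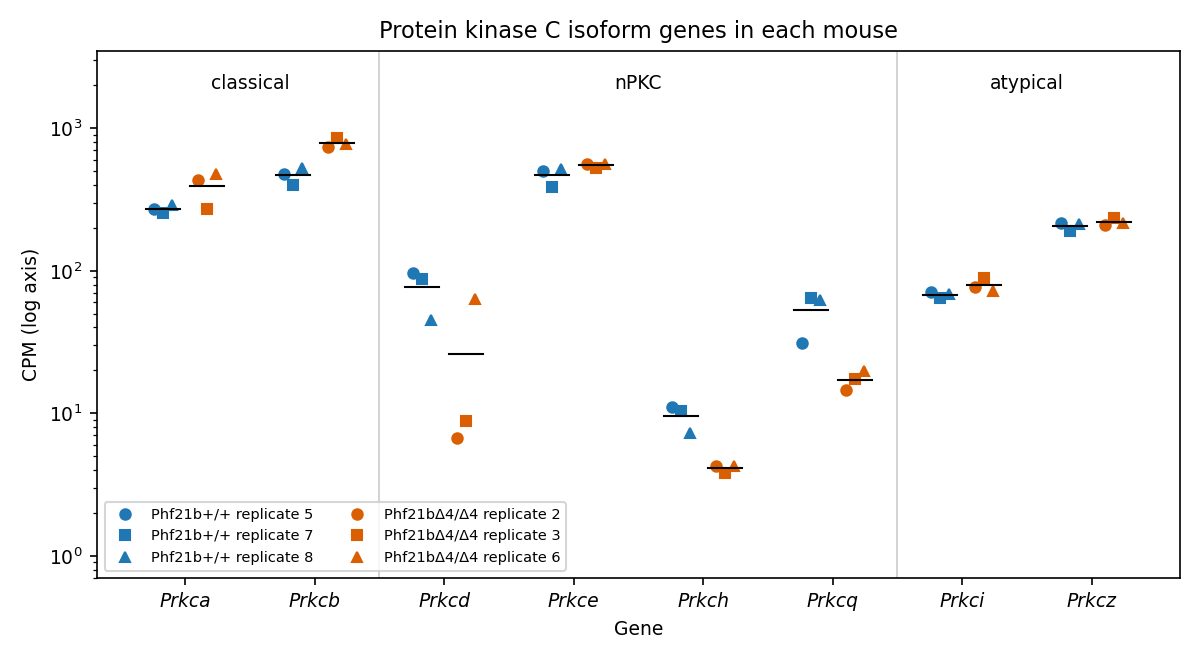
CPM (log axis) of the 8 isoform genes in each mouse, with Phf21b+/+ mice in blue, Phf21bΔ4/Δ4 mice in orange, and black bars at the means of 3 mice. *Prkcb* lies between 398 and 528 CPM in Phf21b+/+ mice and between 735 and 849 CPM in Phf21bΔ4/Δ4 mice, and the 3 Phf21bΔ4/Δ4 mice are spread widely for *Prkcd*.

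Of the classical isoforms *Prkcb* was called and *Prkca* was not. *Prkcb* encodes PKCβ, of which the PKCβI and PKCβII forms differ by splicing and were summed here into 1 value. *Prkcb* lies on chromosome 7 of GRCm38 from 122288751 to 122634402. It had 477, 398, and 528 CPM in Phf21b+/+ replicates 5, 7, and 8 and 735, 849, and 771 CPM in Phf21bΔ4/Δ4 replicates 2, 3, and 6. Each Phf21bΔ4/Δ4 mouse was above each Phf21b+/+ mouse, and the gap between the groups was wider than the spread within either. The log2 fold change of *Prkcb* was 0.75 (95% interval 0.45 to 1.06, FDR 0.081, limma).

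*Prkca* encodes PKCα, which binds the synaptic scaffold protein PICK1. Its levels were 272, 253, and 290 CPM in Phf21b+/+ replicates 5, 7, and 8 and 434, 269, and 480 CPM in Phf21bΔ4/Δ4 replicates 2, 3, and 6. Phf21bΔ4/Δ4 replicates 2 and 6 were above all Phf21b+/+ mice, while replicate 3 lay among them. The log2 fold change of *Prkca* was 0.50 (95% interval -0.01 to 1.01, FDR 0.22, limma). Phf21bΔ4/Δ4 replicate 3 was the lowest of the 6 mice in the summed level of 12 CA2 and CA3 pyramidal markers (430 CPM against 696 to 807 CPM). The same mouse was lowest in the sums of dentate granule (440 CPM), oligodendrocyte (4278 CPM), and choroid plexus markers (28.8 CPM). Not all 12 CA2 and CA3 markers were lowest there. *Pcp4* had 47.0 CPM in it, against 27.7 and 41.7 CPM in Phf21bΔ4/Δ4 replicates 2 and 6. These lists were set beside *Prkca* after the values were seen, and their part in its value was not tested.

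The summed markers of CA1 pyramidal neurons and of interneurons were higher in the same mice as *Prkcb*, while those of dentate granule cells and of CA2 and CA3 were not. The summed level of 9 CA1 pyramidal markers lay between 1039 and 1205 CPM in Phf21bΔ4/Δ4 mice and between 427 and 471 CPM in Phf21b+/+ mice, with 3 of the 9 called higher and none lower. For 9 GABAergic interneuron markers the sum lay between 821 and 1074 CPM and between 581 and 656 CPM, with 1 of the 9 called higher. The median log2 fold change was instead -1.08 over 9 dentate granule markers and -0.57 over 12 CA2 and CA3 markers. In bulk tissue a change in the number of cells of a type and a change in RNA per cell cannot be told apart. The part of these markers in the values of *Prkcb* was not tested.

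The nPKC isoforms held all the lower estimates. *Prkch* encodes PKCη, an isoform best known from epithelia and immune cells. It lies on chromosome 12 from 73584796 to 73778185 and was the lowest of the family. *Prkch* had 11.2, 10.3, and 7.24 CPM in Phf21b+/+ replicates 5, 7, and 8 and 4.26, 3.81, and 4.26 CPM in Phf21bΔ4/Δ4 replicates 2, 3, and 6. The 3 Phf21bΔ4/Δ4 mice were close to each other and all below the Phf21b+/+ mice. The log2 fold change was -1.20 (95% interval -1.66 to -0.74, FDR 0.075, limma).

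*Prkcq* encodes PKCθ, which is known for its role in T-cell receptor signaling. It lies on chromosome 2 from 11172108 to 11301222. *Prkcq* had 31.3, 64.7, and 62.0 CPM in Phf21b+/+ replicates 5, 7, and 8 and 14.6, 17.3, and 19.7 CPM in Phf21bΔ4/Δ4 replicates 2, 3, and 6. The genotypes did not overlap, although Phf21b+/+ replicate 5 was nearer to the Phf21bΔ4/Δ4 mice than to the other Phf21b+/+ mice. The log2 fold change of *Prkcq* was -1.55 (95% interval -2.24 to -0.87, FDR 0.096, limma).

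*Prkcd*, which encodes PKCδ and is widely used as a marker of thalamic relay neurons, had the largest estimated log2 change of the 8 genes and the largest standard error (0.83). Its levels were 96.2, 87.9, and 44.9 CPM in Phf21b+/+ replicates 5, 7, and 8 and 6.71, 8.76, and 63.3 CPM in Phf21bΔ4/Δ4 replicates 2, 3, and 6. Phf21bΔ4/Δ4 replicates 2 and 3 were far below all Phf21b+/+ mice, whereas replicate 6 lay above Phf21b+/+ replicate 8. The log2 fold change of *Prkcd* was -2.22 (95% interval -4.21 to -0.24, FDR 0.18, limma), so it was not called. Without Phf21bΔ4/Δ4 replicate 6 it was -3.24 (FDR 0.012, limma), where 19.5% of all genes were called.

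*Prkce* encodes PKCε, the nPKC isoform known for its presynaptic role at hippocampal synapses. It had 505, 387, and 519 CPM in Phf21b+/+ replicates 5, 7, and 8 and 559, 525, and 564 CPM in Phf21bΔ4/Δ4 replicates 2, 3, and 6. The groups did not overlap, but the lowest Phf21bΔ4/Δ4 mouse and the highest Phf21b+/+ mouse were close together. The log2 fold change of *Prkce* was 0.24 (95% interval -0.07 to 0.55, FDR 0.30, limma), and it became -0.015 after quantile normalization.

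Several marker lists had lower values in Phf21bΔ4/Δ4 mice, as had 3 nPKC isoforms, though not always in the same mice. The summed level of 14 thalamus markers, a list without *Prkcd*, was 1211, 1053, and 782 CPM in Phf21b+/+ replicates 5, 7, and 8 and 498, 556, and 564 CPM in Phf21bΔ4/Δ4 replicates 2, 3, and 6. *Prkch* and *Prkcd* had the same order as this list within the Phf21b+/+ mice, with replicate 5 highest and replicate 8 lowest. *Prkcq* did not, since replicate 5 had its lowest Phf21b+/+ value (31.3 CPM). The thalamic and habenular transcription factor gene *Tcf7l2* had 29.6, 21.4, and 16.2 CPM in Phf21b+/+ replicates 5, 7, and 8 and between 1.74 and 3.001 CPM in Phf21bΔ4/Δ4 mice. *Zic1*, also called lower, had another order, with 127, 200, and 153 CPM in the same Phf21b+/+ mice and between 2.95 and 24.9 CPM in Phf21bΔ4/Δ4 mice. The genotypes did not overlap in 8 of the 14 thalamus markers, against 31.0% of all genes. *Adarb1*, which was not called, made up 31.4% of the sum over the list.

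The summed level of 9 dentate granule markers was 1176, 1036, and 1032 CPM in Phf21b+/+ replicates 5, 7, and 8 and 486, 440, and 931 CPM in Phf21bΔ4/Δ4 replicates 2, 3, and 6. Phf21bΔ4/Δ4 replicate 6, the mouse with 63.3 CPM of *Prkcd*, was thus near the Phf21b+/+ mice for dentate markers but not for thalamus markers. Among the dentate markers, *Lct* had 148 CPM in that mouse, 11.9 and 13.2 CPM in replicates 2 and 3, and between 113 and 133 CPM in Phf21b+/+ mice. Not all 9 dentate markers had this pattern. *Calb1* had 149, 126, and 120 CPM in Phf21bΔ4/Δ4 replicates 2, 3, and 6 and between 149 and 168 CPM in Phf21b+/+ mice. *Pdzd2*, the dentate marker called lower, had 38.8, 48.1, and 48.5 CPM and between 70.3 and 76.4 CPM. For 12 medial habenula markers, without *Lmo3* and *Tac1*, the sum lay between 170 and 236 CPM in Phf21b+/+ mice and between 6.44 and 10.9 CPM in Phf21bΔ4/Δ4 mice. *Lmo3*, which the hippocampus also expresses, made up 61.9% of the sum over the full habenula list. The part of these markers in the values of *Prkcd*, *Prkch*, and *Prkcq* was not tested.

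**Figure D2:**
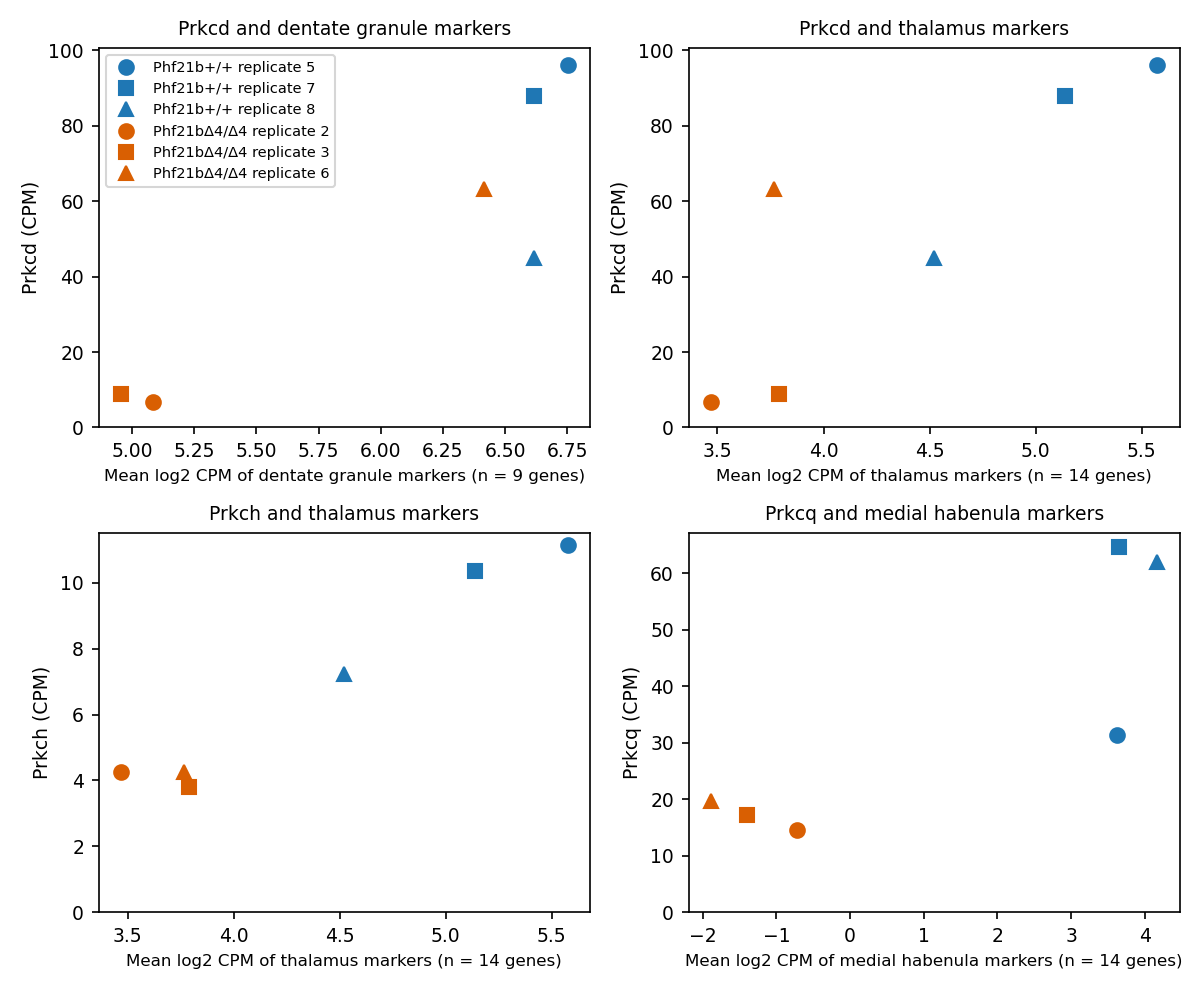
CPM of *Prkcd*, *Prkch*, and *Prkcq* in each mouse against the mean log2 CPM of a marker list, in 4 pairings chosen after the values were seen, with Phf21b+/+ mice in blue and Phf21bΔ4/Δ4 mice in orange. For *Prkcd*, Phf21bΔ4/Δ4 replicate 6 (63.3 CPM) lies with the Phf21b+/+ mice on the dentate axis and with the Phf21bΔ4/Δ4 mice on the thalamus axis.

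The calls in the remaining marker lists stand beside a share of 1.22% over all genes. None of 8 oligodendrocyte, 7 microglia, or 7 endothelial markers was called, 1 of 7 astrocyte markers and 1 of 10 choroid plexus markers was called lower, and none of 12 CA2 and CA3 markers was called. Of the 9 dentate markers 1 was called lower, but the genotypes did not overlap in 7 of the 9, against 31.0% of all genes. The summed level of the microglia markers lay between 445 and 496 CPM in Phf21bΔ4/Δ4 mice and between 451 and 480 CPM in Phf21b+/+ mice. The ranges of the 2 genotypes also overlapped for oligodendrocyte markers (4278 to 6353 and 4854 to 6481 CPM), astrocyte markers (2730 to 3069 and 2779 to 3115 CPM), and endothelial markers (151 to 195 and 107 to 158 CPM).

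The atypical isoforms had the smallest estimated changes. *Prkci* encodes PKCι, a partner of the PAR polarity proteins. It had 70.8, 64.1, and 68.5 CPM in Phf21b+/+ replicates 5, 7, and 8 and 77.1, 88.5, and 72.2 CPM in Phf21bΔ4/Δ4 replicates 2, 3, and 6. The groups were separate by a narrow margin, and the log2 fold change was 0.22 (95% interval -0.01 to 0.45, FDR 0.22, limma).

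*Prkcz* encodes PKCζ and, from an internal start, the brain form PKMζ, a kinase without the regulatory part that has been studied for the maintenance of long-term potentiation. Reads over the whole gene do not tell PKCζ and PKMζ apart. *Prkcz* had 215, 191, and 214 CPM in Phf21b+/+ replicates 5, 7, and 8 and 210, 236, and 218 CPM in Phf21bΔ4/Δ4 replicates 2, 3, and 6. The groups overlapped, and the log2 fold change was 0.10 (95% interval -0.11 to 0.30, FDR 0.48, limma). A change of the whole gene outside -0.11 to 0.30 on the log2 scale thus lay beyond the interval, while a shift between its forms could not be seen.

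Because the transcription factor CREB was studied in these mice, the start regions of the isoform genes were searched on both strands for its binding motif, the cAMP response element TGACGTCA. RefSeq start regions of 300 bases on GRCm38.p6 (250 before and 50 after the start) were at hand for 6 of the 8 genes, in 9 regions, while *Prkce* and *Prkch* had no entry. The motif was in 1 of the 9 regions, at an internal start of *Prkcz*, and in 1.79% of all 32851 regions. It begins 7 bases before the start at position 155345789 of chromosome 4, and the surrounding stretch at chr4:155345778-155345807 on the minus strand is shown with the motif in capitals.
Prkcz internal start: ttgtttccgtgTGACGTCAgctcctccgta
The shorter form TGACG, which lies inside the full motif, was in 2 of the 9 regions, both of *Prkcz*, and in 20.8% of all regions. A match describes these letters and does not measure binding, and the regions of *Prkcb* and *Prkcq* held neither form. *Prkcz*, the gene with the match, was not called.

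**Figure D3:**
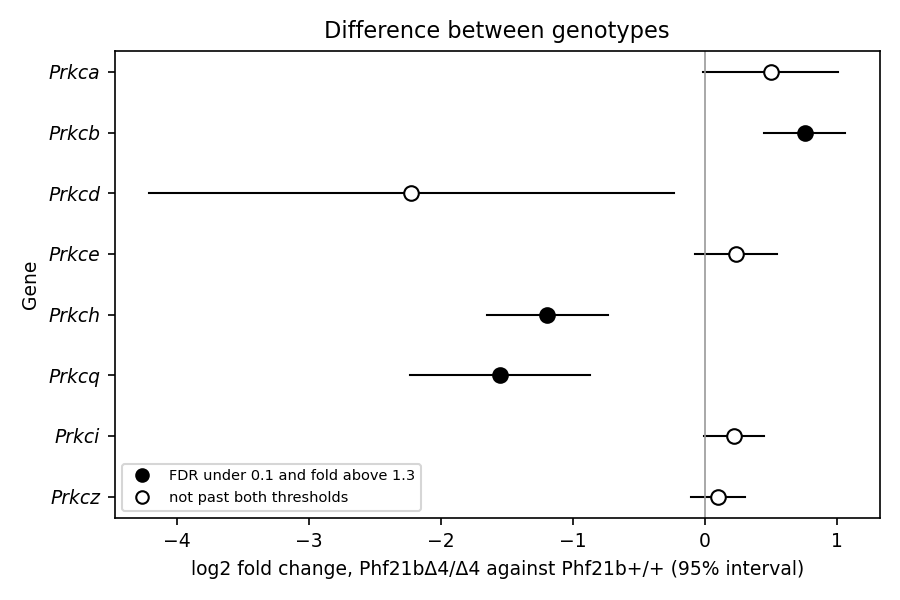
Log2 fold change of each gene in Phf21bΔ4/Δ4 against Phf21b+/+ mice (horizontal axis) with its 95% interval by limma, 3 mice per genotype, filled where the gene was called. *Prkcb* (0.75) is filled to the right of 0 and *Prkch* (-1.20) and *Prkcq* (-1.55) to the left, while the interval of *Prkcd* is the widest.

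Levels of different isoforms were compared as CPM per kb of exon, since long genes collect more reads. In Phf21b+/+ mice the order was *Prkce* (64.8 ± 10.01 CPM per kb, SD, n = 3), *Prkcb* (61.1 ± 8.60), *Prkcz* (32.7 ± 2.21), *Prkca* (30.2 ± 2.07), *Prkcd* (13.8 ± 4.97), *Prkci* (12.2 ± 0.612), *Prkcq* (7.44 ± 2.62), and *Prkch* (1.27 ± 0.274). Neighbors in this order overlapped over the mice for *Prkce* and *Prkcb*, for *Prkcz* and *Prkca*, and for *Prkcd* and *Prkci*. In Phf21bΔ4/Δ4 mice *Prkcb* came first with 103 ± 7.61 CPM per kb, followed by *Prkce* with 75.7 ± 2.97 (SD, n = 3 each), and the mice did not overlap between these genes. *Prkcd* followed *Prkci* there, with 4.74 ± 5.79 against 14.3 ± 1.51 CPM per kb. The summed level of the 8 isoforms lay between 201 and 237 CPM per kb in Phf21b+/+ mice and between 271 and 294 CPM per kb in Phf21bΔ4/Δ4 mice.

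The share of each isoform in the summed level of the 8 genes was then taken within each mouse, so that it does not depend on library scaling. *Prkcb* took 26.8%, 25.8%, and 29.1% in Phf21b+/+ replicates 5, 7, and 8 and 35.3%, 40.9%, and 34.2% in Phf21bΔ4/Δ4 replicates 2, 3, and 6. The classical isoforms *Prkca* and *Prkcb* together took 40.8% ± 1.71 in Phf21b+/+ mice and 52.5% ± 0.514 in Phf21bΔ4/Δ4 mice (SD, n = 3 each). The nPKC isoforms took 39.1% ± 1.20 and 29.8% ± 1.55, and the atypical isoforms 20.1% ± 0.598 and 17.7% ± 1.79 (SD, n = 3 each). The summed level was higher in Phf21bΔ4/Δ4 mice, so a lower share need not be a lower level. *Prkce* had a mean share of 28.9% in Phf21b+/+ and 27.1% in Phf21bΔ4/Δ4 mice, but 64.8 and 75.7 CPM per kb. *Prkcz* had 14.7% and 12.6%, but 32.7 and 35.0 CPM per kb. *Prkcd*, *Prkch*, and *Prkcq* were lower in both mean share and mean level. For the classical and nPKC classes the genotypes did not overlap (exact permutation test, two-sided, p = 0.1 each, 0.18 after Benjamini-Hochberg adjustment over 11 shares), and 0.1 is the smallest p that 3 mice against 3 allow.

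**Figure D4:**
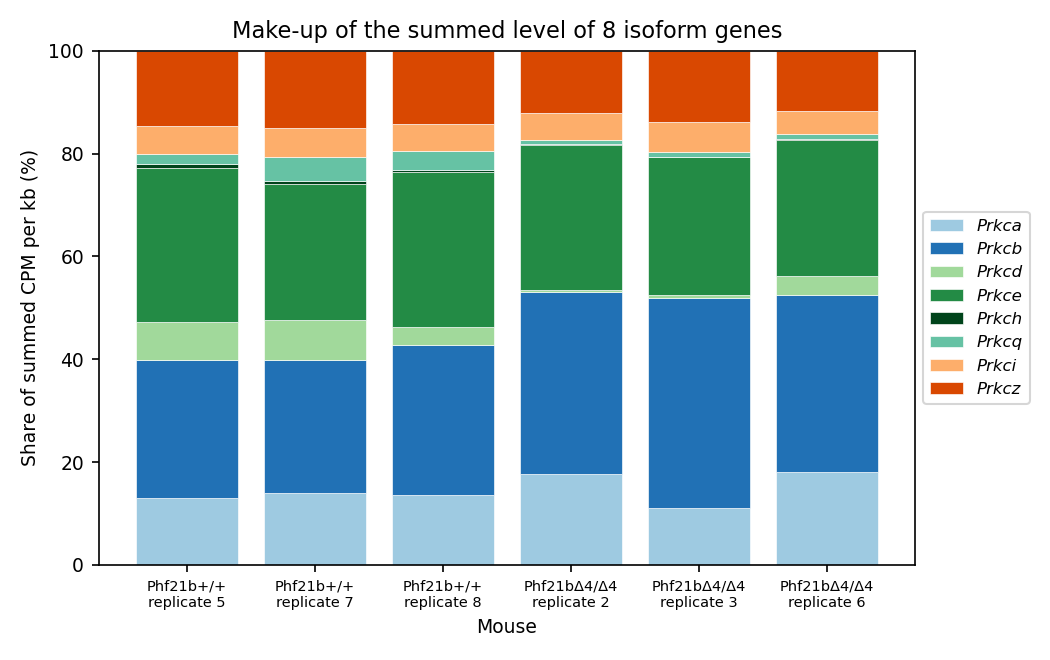
Share (%) of each of the 8 isoform genes in their summed CPM per kb, with 1 bar per mouse, classical isoforms in blue, nPKC in green, and atypical in orange. The 2 blue parts together reach 39.8% to 42.8% in the Phf21b+/+ mice and 52.0% to 53.0% in the Phf21bΔ4/Δ4 mice.

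Paired isoforms of similar sequence were compared by the log2 ratio of their CPM in each mouse, where the gene lengths cancel between genotypes. The ratio of *Prkch* to *Prkce* was lower in Phf21bΔ4/Δ4 mice by a log2 difference of -1.43, with no overlap (exact permutation test, p = 0.1, 0.4 after adjustment over 4 ratios). The ratio of *Prkcb* to *Prkca* differed by 0.26 (exact permutation test, p = 0.8), and it overlapped between the genotypes. Its log2 value was 1.66 in Phf21bΔ4/Δ4 replicate 3 and between 0.65 and 0.86 in the other 5 mice, so that Phf21bΔ4/Δ4 replicates 2 and 6 were within the Phf21b+/+ range for it. The differences were -0.67 for *Prkcd* to *Prkcq* and 0.12 for *Prkci* to *Prkcz* (exact permutation test, p = 0.6 and 0.2). Without Phf21bΔ4/Δ4 replicate 3 the difference for *Prkcb* to *Prkca* was -0.054, and for *Prkcd* to *Prkcq* it was -1.58 without Phf21bΔ4/Δ4 replicate 6 and -0.13 without Phf21b+/+ replicate 5.

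The genes around the isoforms were taken from 9 lists by role, of which 102 of 105 genes were in the table. Of the 102, 2 were called (1.96%, against 1.22% of all genes), both higher in Phf21bΔ4/Δ4 mice. These were the serotonin receptor gene *Htr2a* and the anchor gene *Akap5*. The count was 28 without Phf21bΔ4/Δ4 replicate 6, where 19.5% of all genes were called. It was 1 without Phf21bΔ4/Δ4 replicate 3 and 0 without any one of the other 4 mice. Calls over all genes also fell there, from 176 with all mice. They numbered 45 without Phf21bΔ4/Δ4 replicate 3 and between 9 and 28 without any one of those other 4 mice. The median log2 fold change of the 102 genes was 0.06, against -0.02 over all genes, and the genotypes did not overlap in 35.3% of them, against 31.0% of all genes.

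Among Gq-coupled receptors 1 of 22 was called. *Htr2a*, which encodes the 5-HT2A receptor, had 19.5, 14.2, and 16.0 CPM in Phf21b+/+ replicates 5, 7, and 8 and 29.3, 31.0, and 27.0 CPM in Phf21bΔ4/Δ4 replicates 2, 3, and 6. All Phf21bΔ4/Δ4 mice were above all Phf21b+/+ mice, with a log2 fold change of 0.82 (FDR 0.079, limma). *Grm5*, the gene of the metabotropic glutamate receptor mGluR5 and the receptor gene with the most reads, averaged 498 ± 22.0 CPM in the Phf21b+/+ group and 701 ± 58.6 CPM in the Phf21bΔ4/Δ4 group (SD over 3 mice). The log2 difference of 0.49 did not pass (FDR 0.11, limma). The median over the 22 receptors was 0.43.

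The enzymes that make and remove diacylglycerol gave no call. None of 4 Gq alpha subunits was called, and *Gnaq*, with the most reads, had a log2 fold change of 0.39 (FDR 0.14, limma). None of 12 phospholipase C enzymes was called. *Plcb1*, the main hippocampal form, had a log2 fold change of 0.46, and *Plcb4*, which is prominent in thalamus, had -0.99 (FDR 0.13 for both, limma). None of 11 diacylglycerol kinases and lipases, which convert diacylglycerol, was called, and *Dgkz* had -0.08 (FDR 0.87, limma). The median log2 fold changes of the last 2 lists were -0.03 each.

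Of 14 anchors and scaffolds 1 was called. *Akap5*, whose product AKAP79/150 holds PKC, PKA, and calcineurin at the postsynaptic membrane, had 92.2, 88.3, and 98.2 CPM in Phf21b+/+ replicates 5, 7, and 8 and 161, 203, and 148 CPM in Phf21bΔ4/Δ4 replicates 2, 3, and 6. The genotypes were far apart, with a log2 fold change of 0.86 (FDR 0.067, limma). *Rack1*, the receptor for activated PKC, had a log2 fold change of -0.37 (FDR 0.13, limma), and *Sqstm1*, a scaffold of the atypical isoforms with the most reads of this list, had 0.09 (FDR 0.51, limma). The list median was -0.24.

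None of 15 PKC substrates was called, nor any of 11 genes for priming and dephosphorylation of PKC, nor any of 8 other genes with a diacylglycerol-binding C1 domain. The genes with the most reads in these lists were *Snap25*, a vesicle fusion protein (log2 fold change 0.18, FDR 0.40, limma), the chaperone gene *Hsp90ab1* (0.32, FDR 0.16), and *Chn1*, a Rac regulator (-0.09, FDR 0.80). The list medians were 0.03, 0.10, and -0.03. None of 5 related kinases of the PKD and PKN families was called, and the median of this list was -0.16. *Pkn2*, which had the most reads among them, had a log2 fold change of -0.19 (FDR 0.23, limma).

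**Figure D5:**
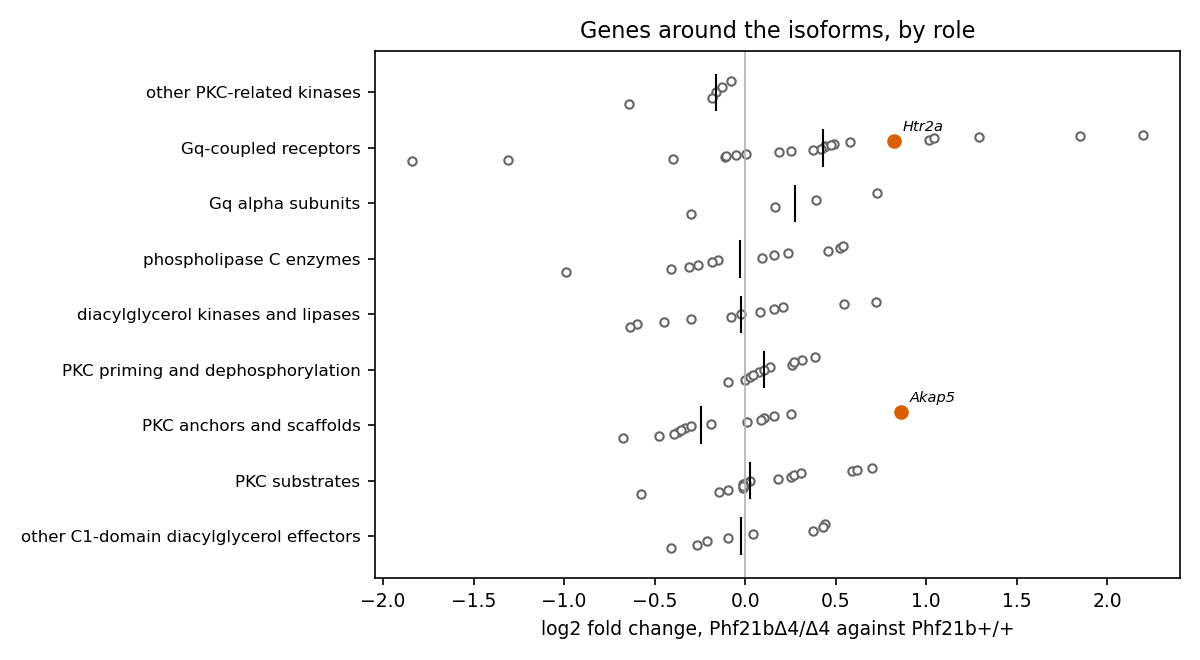
Log2 fold change in Phf21bΔ4/Δ4 against Phf21b+/+ mice (horizontal axis) of each gene in the 9 lists around the PKC isoforms, 1 row per list, with black bars at list medians and filled orange points for called genes. Only *Htr2a* (0.82) and *Akap5* (0.86) are filled, and the list medians lie between -0.24 and 0.43.

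The calls of the isoform genes rested on small margins. When single mice were left out, the number of isoforms called was 4 without Phf21bΔ4/Δ4 replicate 6, where 19.5% of all genes were called. It was 1 without Phf21b+/+ replicate 5 and 0 without any one of the other 4 mice. Calls over all genes also fell in those fits, from 176 with all mice. They numbered 27, 14, and 9 without Phf21b+/+ replicates 5, 7, and 8. Without Phf21bΔ4/Δ4 replicates 2 and 3 they numbered 28 and 45. The lower isoform counts thus came with a loss of calls over all genes. The direction of all 8 estimates was kept in the 6 fits. *Prkcb* and *Prkch* were under an FDR of 0.1 only without Phf21bΔ4/Δ4 replicate 6 (FDR 0.034 and 0.031), and *Prkcq* only without that mouse or without Phf21b+/+ replicate 5 (FDR 0.036 and 0.059). With mice weighted by arrayWeights of limma, the fit called 5 of the 8 isoforms, where 24.5% of all genes were called. By limma voom on reads worked out from the values, *Prkcb* was called (FDR 0.093) and *Prkch* and *Prkcq* were not (FDR 0.11 and 0.13).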

How the data were processed

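The deposited values are log2 CPM of 14477 genes in 6 mice, 1 column per mouse. Per the labels and the study's methods, the authors used Trimmomatic 0.39 for trimming, STAR 2.7.3a for mapping to GRCm38, and featureCounts (Subread 1.6.4) for counting over GENCODE genes, and then scaled by edgeR's effective library size. Their filter asked for 1 CPM or more in 2 samples, which 14439 of the deposited genes met. The strand setting of the counting and the prior count are not given in the sources used here.

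Once the linear equivalent of the lowest value (-7.81) had been subtracted, 100% of values were whole multiples of 1 read within 0.1 reads, and these reads gave the depth and the CPM printed here. Genotypes were compared with limma 3.58.1 (R 4.3.3) on the log2 values, with a prior variance that follows the mean, no covariate, and Benjamini-Hochberg adjustment over all genes. The fit was also run on values simulated from the fitted model with known changes. Such values meet the assumptions of the model, so the run cannot test them for these mice. The thresholds are those of the authors, who tested counts with edgeR. Their list of differentially expressed genes holds *Prkcb* as higher and *Prkch* as lower, but not *Prkcq*. Exact permutation tests used the 20 divisions of 6 mice. The limma p-values set the difference between genotypes against the spread between mice, with the variance of each gene drawn toward the trend over all genes. The exact p-values place that difference among the 20 divisions. Intervals of fold changes come from the same fit.

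Gene positions and exon lengths are from GENCODE M21 on GRCm38, in which 98.6% of symbols had 1 match. Start regions are from RefSeq. Named were all isoforms, *Phf21b*, called genes and the gene with the most reads of each list by role, and the 3 genes most like each called isoform. Other genes of these lists and of the marker lists (habenula, thalamus, CA1, CA2 and CA3, dentate, interneuron, choroid plexus, oligodendrocyte, astrocyte, microglia, endothelium) were named after their values were seen. The isoforms and lists, written from general knowledge, were chosen with earlier results of these data known, and 1 gene of the lists is not reported here. Exact tests were written in Python 3.11.15, SciPy 1.17.1 gave the t quantiles of the intervals, and drawings were made in matplotlib 3.10.9. Tables were handled with pandas 2.3.3 and NumPy 2.4.6. Alternatives were other variance priors, arrayWeights, a filter on low values, log2(CPM + 1), quantile normalization, centring, voom, other thresholds, and leaving out mice.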

Additional observations from a re-analysis of the deposited data

How the results depend on the processing

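No paired analysis was possible because the labels name no litters or pairs of mice. With 3 mice per genotype, isoform calls lay near the FDR limit. A constant prior variance gave 0 isoform calls, with log2 fold changes of 0.75 for *Prkcb* (FDR 0.13), -1.20 for *Prkch* (FDR 0.11), and -1.55 for *Prkcq* (FDR 0.15, limma). Quantile normalization gave 1 call, with 0.51 for *Prkcb* (FDR 0.13) and -0.98 for *Prkch* (FDR 0.12), and the log2 fold change turned to -0.015 for *Prkce* and to -0.054 for *Prkcz*. Limma voom gave 1 call, with -1.19 for *Prkch* and -1.56 for *Prkcq*. *Prkcq* (-1.55) was also past 0.1 with robust empirical Bayes (FDR 0.104) and among genes whose mean log2 CPM was 1 or more (FDR 0.11). By arrayWeights 5 isoforms and 33 genes of the lists by role were called, *Prkca* (0.50) and *Prkcd* (-2.56) among the isoforms. Of the listed genes 0 were called with the constant prior variance. At an FDR under 0.05, 0 isoforms and 0 listed genes were called. The cause of these changes was not tested. Leaving out single mice, log2 fold changes ranged from 0.64 to 0.85 for *Prkcb*, -1.39 to -1.07 for *Prkch*, -1.89 to -1.37 for *Prkcq*, and -3.24 to -1.62 for *Prkcd*, the number of isoforms called from 0 to 4, and the number of listed genes from 0 to 28, the highest without Phf21bΔ4/Δ4 replicate 6. With single mice left out, the difference ranged from -0.054 to 0.43 for the ratio of *Prkcb* to *Prkca*, from -1.58 to -0.13 for *Prkcd* to *Prkcq*, and from -0.72 to 0.016 percentage points for the share of *Prkci*, so the first and the last turned in sign, while the other ratios and shares kept theirs. Over all genes, recomputed after seeing the data, 75 were called with the constant prior variance, 3549 with arrayWeights, 101 above the filter, 25 at an FDR under 0.05, and 9 to 2830 with single mice left out.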

Other observations

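The genes whose log2 CPM over the 6 mice was most like that of each called isoform were taken from the other genes whose mean log2 CPM was 3 or more (10486 for *Prkcb* and *Prkcq*, 10487 for *Prkch*). For *Prkcb* these were *Tmem74* (Pearson r 0.997), *Zfp369* (0.995), and *Hivep2* (0.994), and 164 genes had an r above 0.95. The level of *Tmem74*, which encodes a membrane protein, was 60.2 CPM in Phf21bΔ4/Δ4 mice and 40.9 CPM in Phf21b+/+ mice. For *Prkch* they were *Arsj* (0.995), the nucleoside transporter gene *Slc29a1* (0.992), and *Amotl1* (0.987), and 23 genes had an r above 0.95. *Amotl1* is on the list of thalamus markers and had 35.1 CPM in Phf21bΔ4/Δ4 mice and 103 CPM in Phf21b+/+ mice. For *Prkcq* they were *Mettl9* (0.997), the glutathione peroxidase gene *Gpx1* (0.996), and *Ccdc34* (0.993), and 110 genes had an r above 0.95. These values describe 6 points that share the 2 genotypes, the library depth, and the tissue dissected.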
